A study of Mus musculus with 29 samples.

Results

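The core circadian clock genes are the transcription factors and repressors whose mutual regulation gives a cell its daily rhythm. The 10 genes described here were taken by symbol from the gene count table: the activators Arntl, Clock and Npas2, the repressors Per1, Per2, Per3 and Cry1, the nuclear receptor repressor Nr1d1, the output factor Dbp and the repressor Bhlhe40. Each symbol matched 1 row of the 55421 listed genes. Their counts were measured by poly(A) RNA sequencing of whole liver from 27 mice, in a study that treated naturally aged mice with HDM201, an inhibitor of MDM2, the ubiquitin ligase that restrains the tumour suppressor p53. The comparisons ask whether HDM201 moved liver gene expression in old mice, and how old livers differ from young ones in each sex.

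Females were young and vehicle treated (5 mice, aged 5 months), old and vehicle treated (4 mice, 20 months) or old and given HDM201 (5 mice, 20 months). Males were young and vehicle treated (4 mice, 5 months), old and vehicle treated (4 mice, 24 months) or old and given HDM201 (5 mice, 24 months). HDM201 was given at 10 mg/kg by gavage each morning for 14 days, in a methylcellulose vehicle, and livers were collected in the morning. The hour at which each mouse was killed was not given in the sources used here, so no value below can be set against an hour of the morning. Any difference between groups in that hour cannot be told apart from HDM201, age or sex in the comparisons below. None of the mice carried an engineered allele. The old mice are labelled C57BL/6J and the young mice C57BL6/N, so age and substrain cannot be told apart in any comparison of old with young. The ages given in the methods differ slightly from those in the labels, which are used here. Females and males of one label also differed in age when old.

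In the mammalian clock ARNTL (also called BMAL1) pairs with CLOCK or its paralogue NPAS2 and switches on genes that carry E-boxes, among them the Per and Cry genes, Nr1d1 and Dbp. PER and CRY proteins then return to block that pair, while NR1D1 (REV-ERB alpha) holds down Arntl, Npas2 and Cry1 through ROR elements, and DBP, a PAR bZIP factor, acts on D-boxes. In the liver of mice kept on a light/dark cycle the transcripts peak one after another, in the rough order Nr1d1, Dbp and Per3, Per1, Per2, Cry1 and then Arntl and Npas2. Arntl and Dbp thus run in nearly opposite phase. Feeding time can shift the hours of these peaks.

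The promoter windows are shown for the elements through which this family is known to act. Promoter sequences of 300 bases, 250 before and 50 after each start site, were read from RefSeq (build GRCm38.p6) for 8 of the 10 genes, 12 start sites in all, and were searched on both strands for the E-box CACGTG, the E-prime box CACGTT, the D-box TTATGTAA or TTACGTAA, the ROR element core TAGGTCA or TGGGTCA, and the cAMP response element TGACGTCA. Per2 and Bhlhe40 were not in the table. The lines that follow show the stretch around each match, 5′ to 3′ on the gene's own strand, with the matched letters in capitals.
Per3, chr4:151044786-151044900, minus strand: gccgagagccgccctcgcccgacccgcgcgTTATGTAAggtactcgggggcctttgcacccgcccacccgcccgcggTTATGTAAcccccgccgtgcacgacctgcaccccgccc
Cry1, chr10:85185079-85185163, minus strand: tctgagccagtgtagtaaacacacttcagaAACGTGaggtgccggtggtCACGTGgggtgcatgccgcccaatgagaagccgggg
Per1, chr11:69098753-69098818, plus strand: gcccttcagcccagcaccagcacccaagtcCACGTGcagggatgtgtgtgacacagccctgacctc
Nr1d1, chr11:98775378-98775435, minus strand: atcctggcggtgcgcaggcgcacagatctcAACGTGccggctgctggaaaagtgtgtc
Arntl, chr7:113207530-113207558, plus strand: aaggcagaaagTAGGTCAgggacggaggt

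Per3 held 2 D-boxes, beginning at positions -205 and -158 from its start site, and a D-box was found in 1.06% of 32851 promoters of this length. Cry1 held an E-prime box at -79, which reads AACGTG on its strand, and an E-box at -60. Per1 held an E-box at -166 and Nr1d1 an E-prime box at -28, against shares of 7.15% of promoters with an E-box and 4.68% with an E-prime box. Arntl held a ROR element core at position 31, just after one of its start sites, a match found in 6.45% of promoters. None of these 5 motifs was found in the windows of Clock, Npas2 or Dbp, and the cAMP response element, present in 1.79% of promoters, was found in none of the 8 genes. A match is a run of letters and does not show that a factor was bound.

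Each library held 16485900 to 23570458 counts assigned to genes, with a median of 19149235. Levels are given in CPM, counts of a gene per 1000000 counts of the library, after scaling of library sizes by the trimmed mean of M-values (TMM). Each of the 6 hepatocyte markers had counts in every group. Mdm2, whose product HDM201 binds and which is itself switched on by p53, stood at 26.6 ± 0.945 CPM in old vehicle females and 33.5 ± 3.10 CPM with HDM201, and at 33.5 ± 2.75 and 33.4 ± 1.37 CPM in the corresponding males. All 10 genes matched the GENCODE vM21 annotation (GRCm38) with the same identifier version. Several overlap another gene: Dbp overlaps Sphk2 and Nr1d1 overlaps Thra on the opposite strand, Per3 overlaps Camta1 on the same strand, and Arntl and Bhlhe40 have antisense neighbours. Npas2 overlaps the processed pseudogenes Gm3617 on the same strand and Gm20428 on the opposite strand. Clock overlaps Gm43658 and the processed pseudogene Ube2n-ps1, both on the same strand. The strand setting of the counting was not given, and it would not separate pairs on the same strand. Reads from all such pairs may therefore not be separated. The libraries are of bulk tissue, where fewer cells of a type and less RNA per cell cannot be told apart.

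Per kilobase of merged exon, Bhlhe40 had the highest level, at 37.2 ± 11.6 CPM per kb (SD, n = 27), followed by Nr1d1 at 30.1 ± 16.0 and Dbp at 29.6 ± 24.5. Per1 followed at 11.8 ± 3.84 CPM per kb, Per2 at 7.36 ± 3.40, Cry1 at 5.32 ± 3.92 and Per3 at 4.45 ± 3.09. The 3 activators were the least abundant transcripts, with Clock at 1.83 ± 0.602 CPM per kb, Arntl at 1.53 ± 1.26 and Npas2 at 0.546 ± 0.713. Except from Per1 to Per2, each step between neighbours in this order was smaller than the larger of their SDs.

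**Figure D1:**
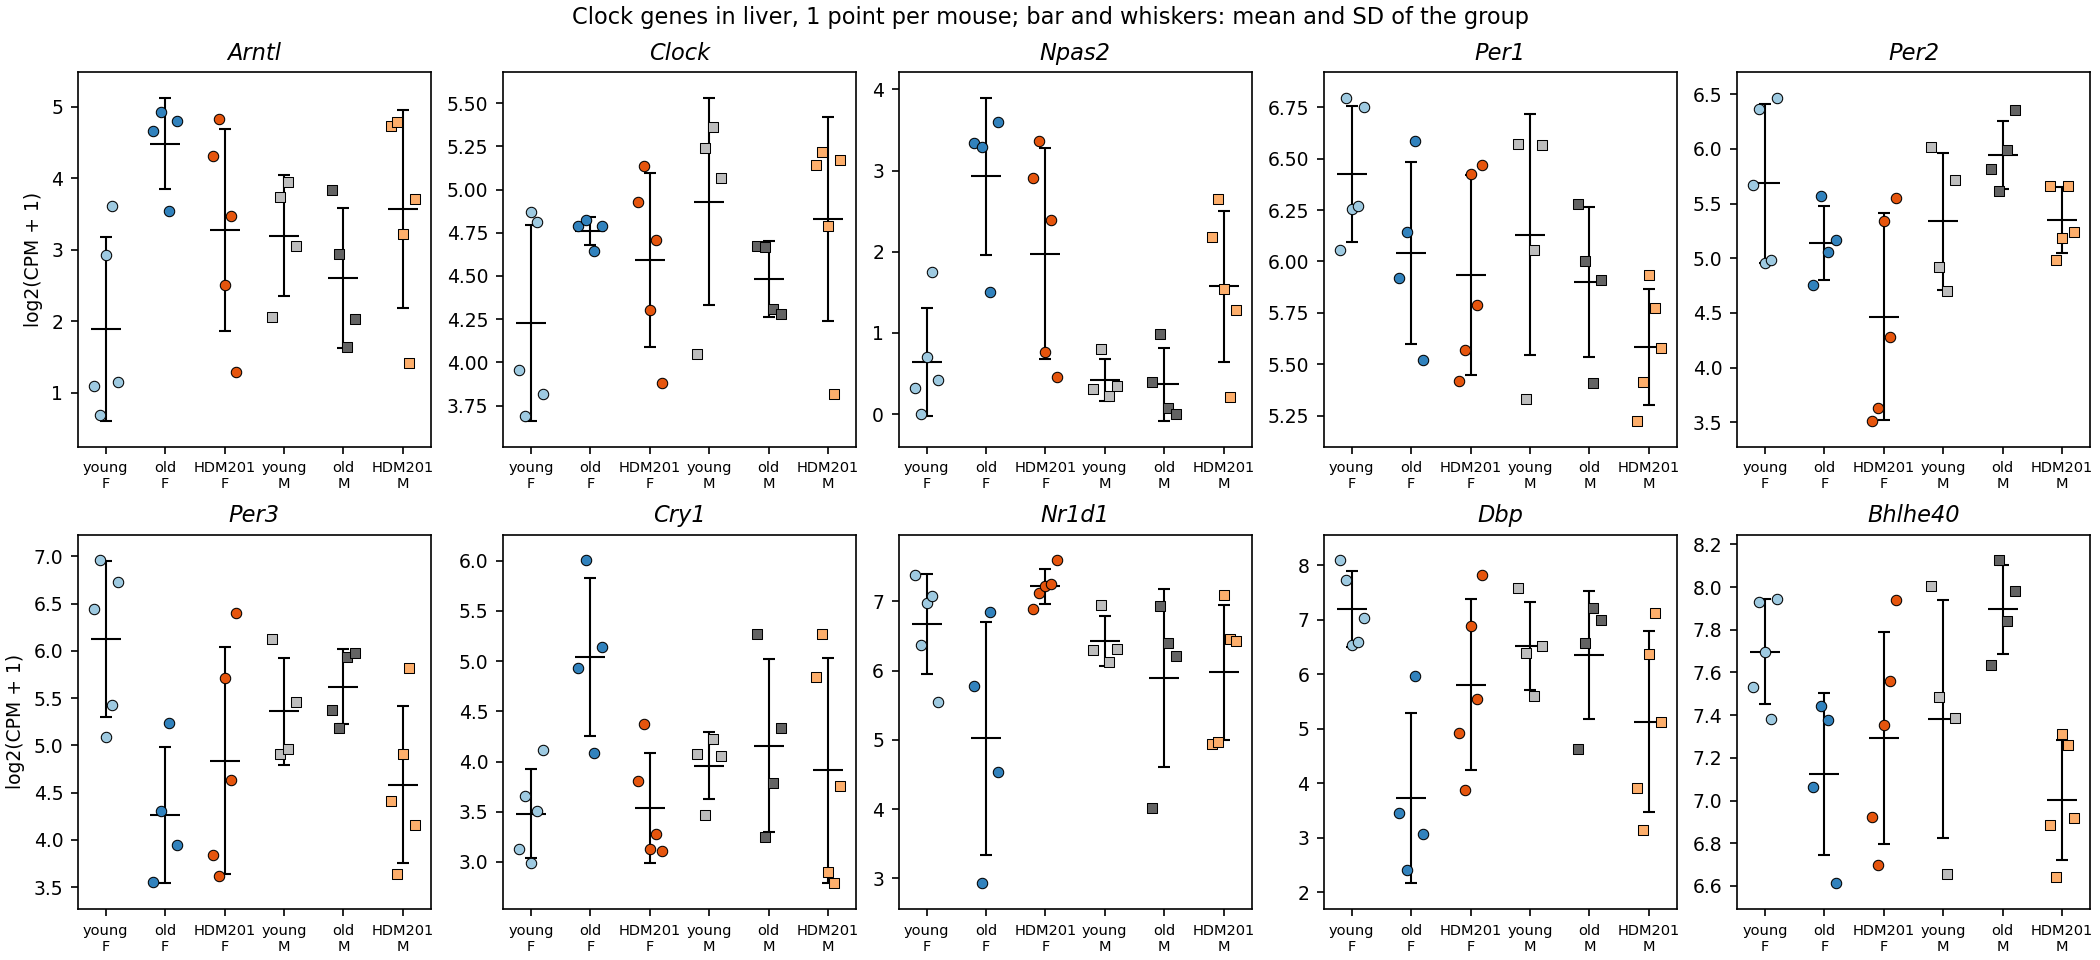
Level of each clock gene as log2(CPM + 1), 1 point per mouse, in 6 groups (F, females; M, males; old, old vehicle; HDM201, old and treated), with a bar for the group mean and whiskers for 1 SD. Each panel has its own vertical axis, whose range is several log2 units for Arntl, Npas2 and Dbp and far less for Per1 and Bhlhe40.

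The dominant feature of these genes was their spread among mice that had been treated alike. The SD within groups of log2(CPM + 1) was 1.31 for Dbp, 1.17 for Arntl, 0.98 for Nr1d1, 0.86 for Npas2 and 0.82 for Per3, against a median of 0.19 over 15293 genes. More than 93% of genes had a smaller SD than any of the 10, with Bhlhe40 (93.1% of genes below it) the least variable and Dbp (99.9%) the most. Between the lowest and the highest of the 27 mice Dbp differed 63.1-fold, Arntl 47.8-fold, Nr1d1 28.9-fold, Per3 11.5-fold and Cry1 10.7-fold. Per2 differed 8.39-fold, Clock 3.37-fold, Per1 3.02-fold and Bhlhe40 2.87-fold.

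Arntl, the activator without which the loop stops, ranged from 0.617 to 29.5 CPM. In females its levels were 1.14, 0.617, 6.65, 11.2 and 1.23 CPM in young mice 1 to 5, and 24.4, 29.5, 10.6 and 26.8 CPM in old vehicle mice 1 to 4. In old females given HDM201 they were 18.8, 27.4, 4.70, 10.1 and 1.46 CPM in mice 1 to 5. All old vehicle females except mouse 3 were thus above every young one, whereas the HDM201 females reached from the young range to that of the old vehicle mice. In males Arntl stood at 3.19, 12.3, 14.4 and 7.31 CPM in young mice 1 to 4, and at 13.2, 6.67, 2.12 and 3.08 CPM in old vehicle mice 2 to 5. HDM201 males 1 to 5 had 25.6, 26.7, 8.29, 1.66 and 12.1 CPM, so that this group held both a mouse below every vehicle male and a pair above them all. Group means in rising order were 4.17 ± 4.64 CPM in young females, 6.28 ± 5.04 in old vehicle males, 9.31 ± 5.05 in young males, 12.5 ± 10.6 in HDM201 females, 14.9 ± 10.9 in HDM201 males and 22.8 ± 8.40 in old vehicle females, and no step between neighbours exceeded the larger SD.

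Dbp, a PAR bZIP activator of detoxification and metabolic genes, went the other way. Young females 1 to 5 had 271, 211, 91.5, 95.8 and 129 CPM, old vehicle females 1 to 4 had 9.96, 4.30, 61.9 and 7.40 CPM, and HDM201 females 1 to 5 had 29.2, 13.7, 117, 45.8 and 226 CPM. Every old vehicle female lay below every young female. Among males, young mice 1 to 4 had 189, 82.3, 47.3 and 90.2 CPM, old vehicle mice 2 to 5 had 23.8, 94.2, 147 and 126 CPM, and HDM201 mice 1 to 5 had 14.0, 7.80, 81.8, 137 and 33.8 CPM. The male groups overlapped one another throughout. In 5 of the 6 groups the order of the mice by Arntl was exactly the reverse of their order by Dbp, and only the young females departed from it.

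Because both transcripts come from the same library, their ratio does not depend on the scaling of library sizes. The ratio of Arntl to Dbp CPM ran from 0.00292 in young female 2 to 6.85 in old vehicle female 2. In old vehicle females it was 2.45, 6.85, 0.172 and 3.62, and in HDM201 females 0.643, 2.00, 0.0402, 0.220 and 0.00647. The HDM201 males were also widely spread, with ratios of 1.82 and 3.42 in mice 1 and 2 and of 0.101, 0.0121 and 0.358 in mice 3 to 5. In the 9 young mice with counts the ratio stayed at or below 0.304.

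**Figure D2:**
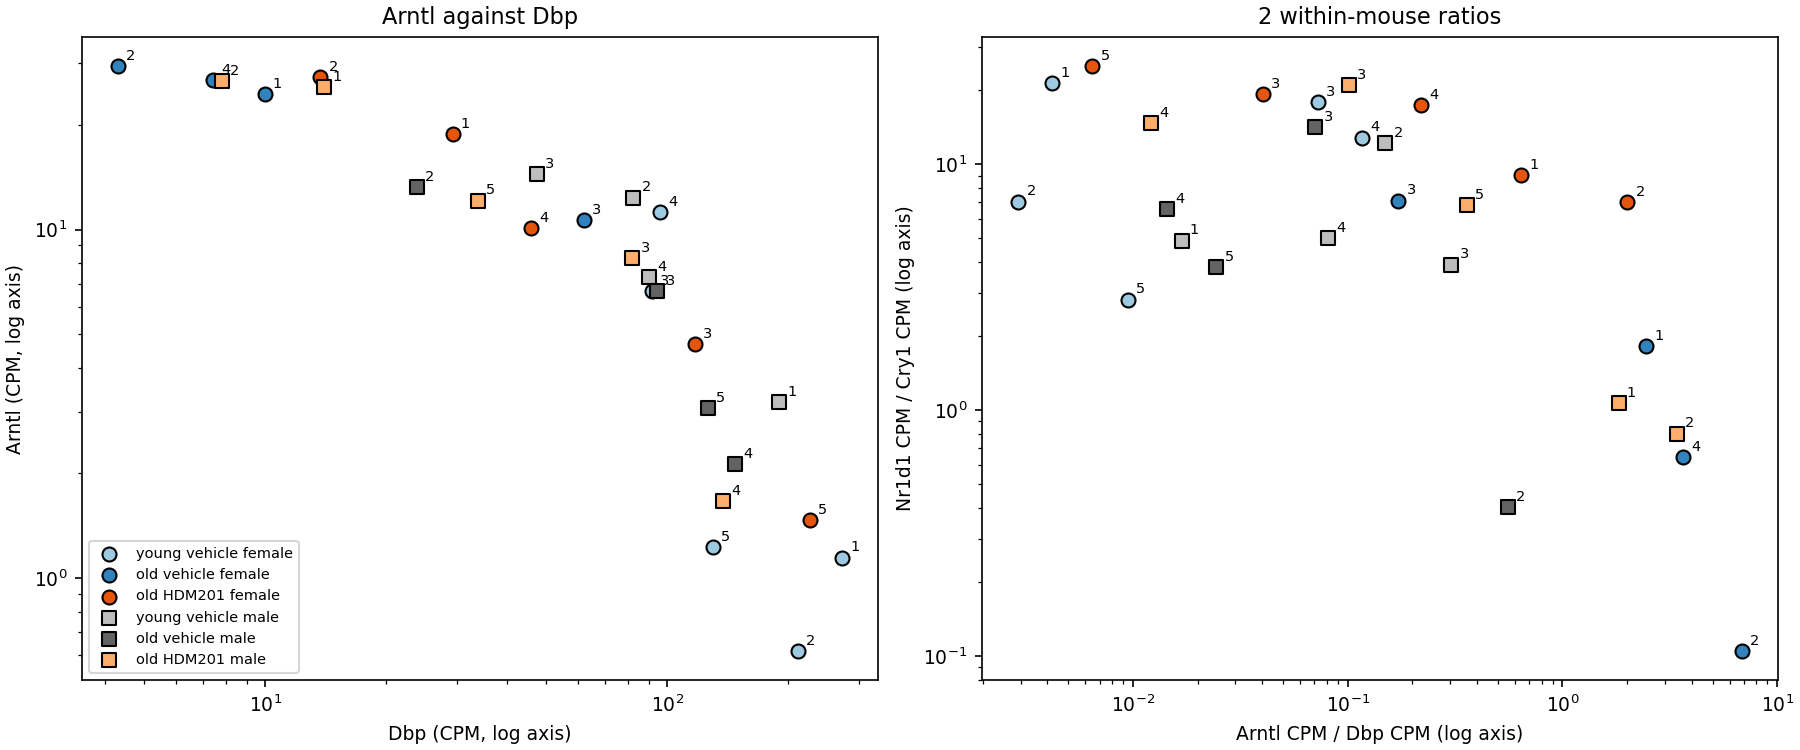
Left, Arntl against Dbp in CPM, both on log axes, 1 point per mouse with its number. Right, the ratio of Nr1d1 to Cry1 CPM against the ratio of Arntl to Dbp CPM, both on log axes. Mice with much Arntl had little Dbp, and old vehicle male 2 and old vehicle female 2 had the lowest ratios of Nr1d1 to Cry1, at 0.404 and 0.105.

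All 9 other genes were then set against Arntl within groups. Each mouse's deviation from its group mean, in log2(CPM + 1), was correlated with that of Arntl over 27 mice, for 9 gene pairs, with 100000 permutations of mice within groups (two-sided). Clock, the partner of ARNTL, rose with it (Pearson's r = 0.92, Spearman's rho = 0.91), as did Npas2 (r = 0.85, rho = 0.84). Per3 (r = -0.91, rho = -0.86) and Dbp (r = -0.89, rho = -0.88) fell as Arntl rose. For these 4 genes the permutation p was 1e-05 for r and for rho, the smallest that this number of permutations can give, and 2.25e-05 after Benjamini-Hochberg adjustment over the 9 pairs. The genes were picked with earlier results known, so these p-values describe the mice at hand.

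Per2 (r = -0.74, rho = -0.72) and Bhlhe40 (r = -0.69, rho = -0.65) also ran against Arntl. Their permutation p was 0.00027 (adjusted 0.000405) and 0.00021 (adjusted 0.000378) for r, and 0.00038 (adjusted 0.000684) and 0.00078 (adjusted 0.00117) for rho. Per1 followed them more loosely, with r = -0.51 (permutation p = 0.00989, adjusted 0.0111) and rho = -0.51 (permutation p = 0.011, adjusted 0.0141). Cry1 was the only one of the 4 Per and Cry repressors to go with Arntl, with r = 0.54 (permutation p = 0.00877, adjusted 0.0111) and rho = 0.48 (permutation p = 0.0225, adjusted 0.0253). Nr1d1, which represses Arntl, did not pass, with r = -0.36 (permutation p = 0.0523, adjusted 0.0523) and rho = -0.35 (permutation p = 0.0837, adjusted 0.0837). Young females 1 and 2 lay farthest from the median Arntl of all mice, though other mice lay farther from the mean of their own group. Without these females r ranged from -0.91 for Per3 to 0.92 for Clock, and Nr1d1 remained the only one of the 9 not to pass, at r = -0.37.

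**Figure D3:**
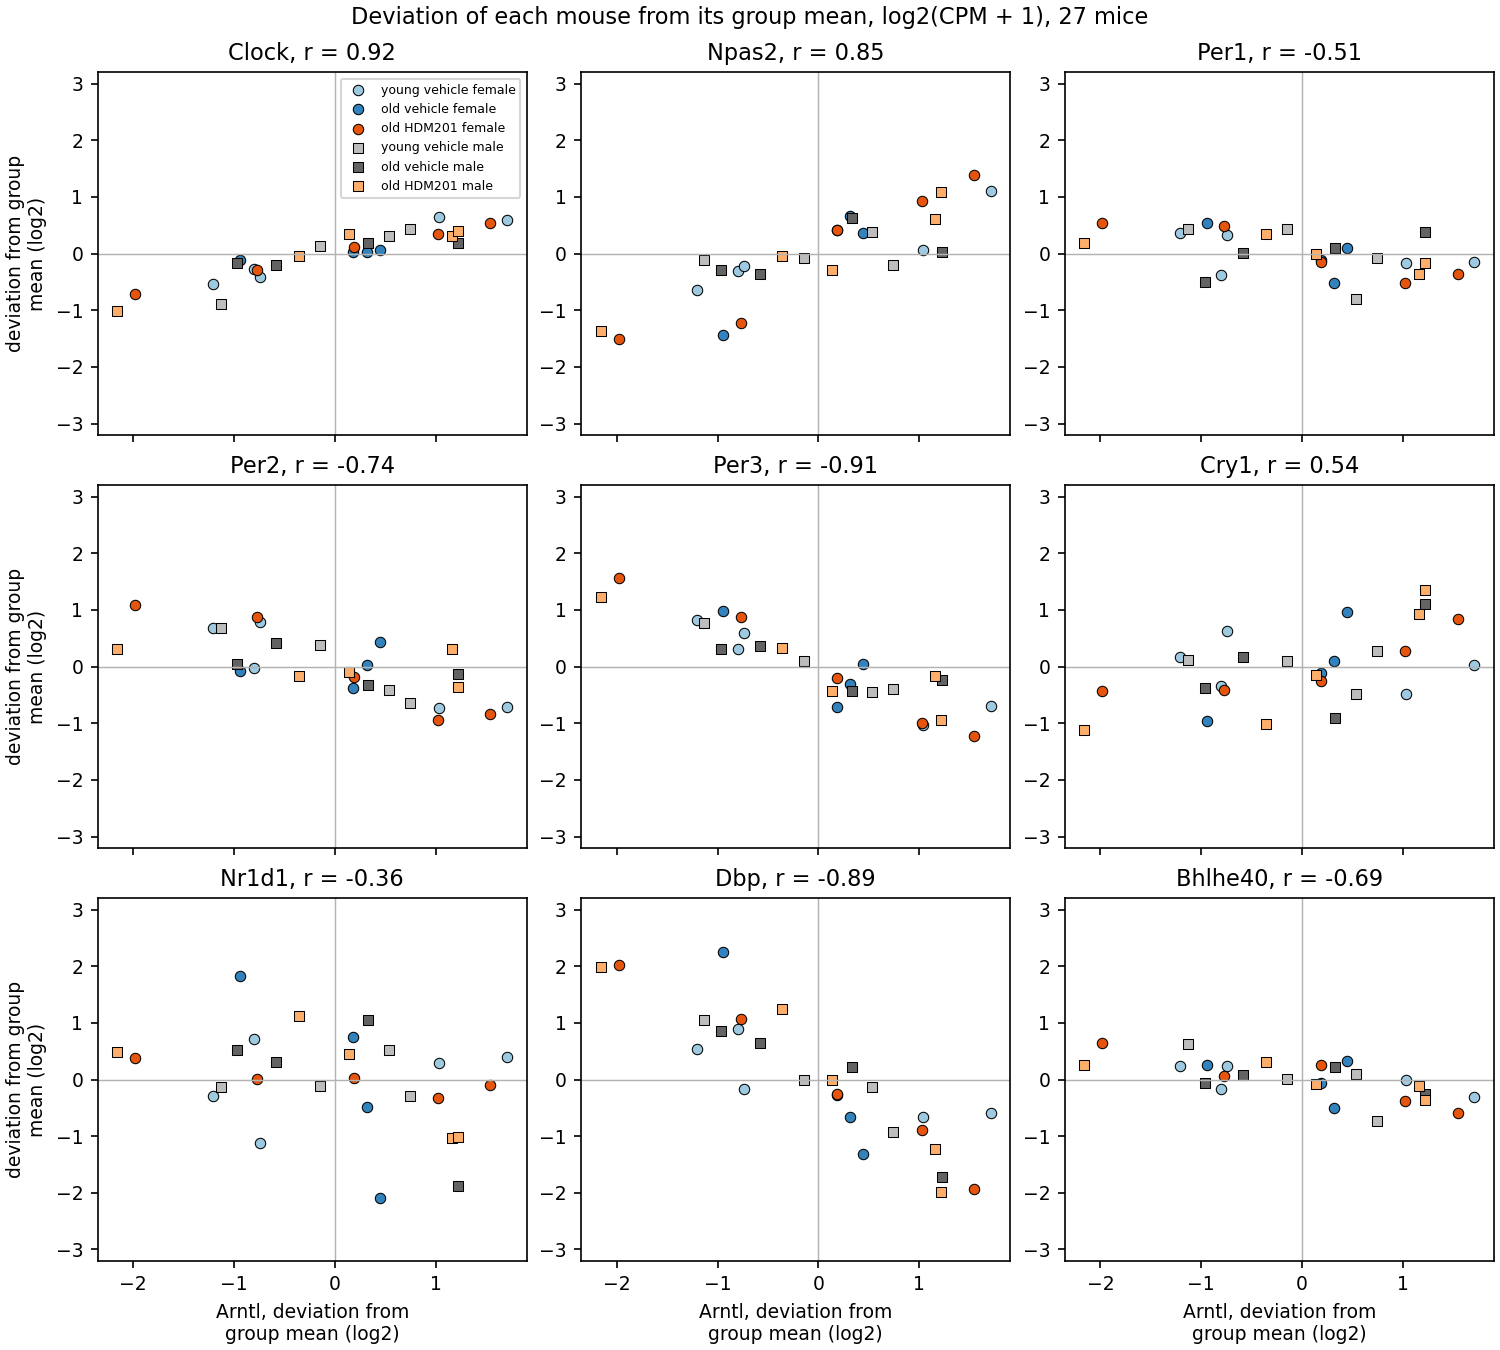
Deviation of each of 27 mice from its group mean in log2(CPM + 1), for 9 clock genes on the vertical axes against Arntl on the horizontal axes, with Pearson's r in each title. Points of all 6 groups lie on one band, rising for Clock and Npas2 and falling for Per3 and Dbp, while the points for Nr1d1 scatter widely (r = -0.36).

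**Figure D4:**
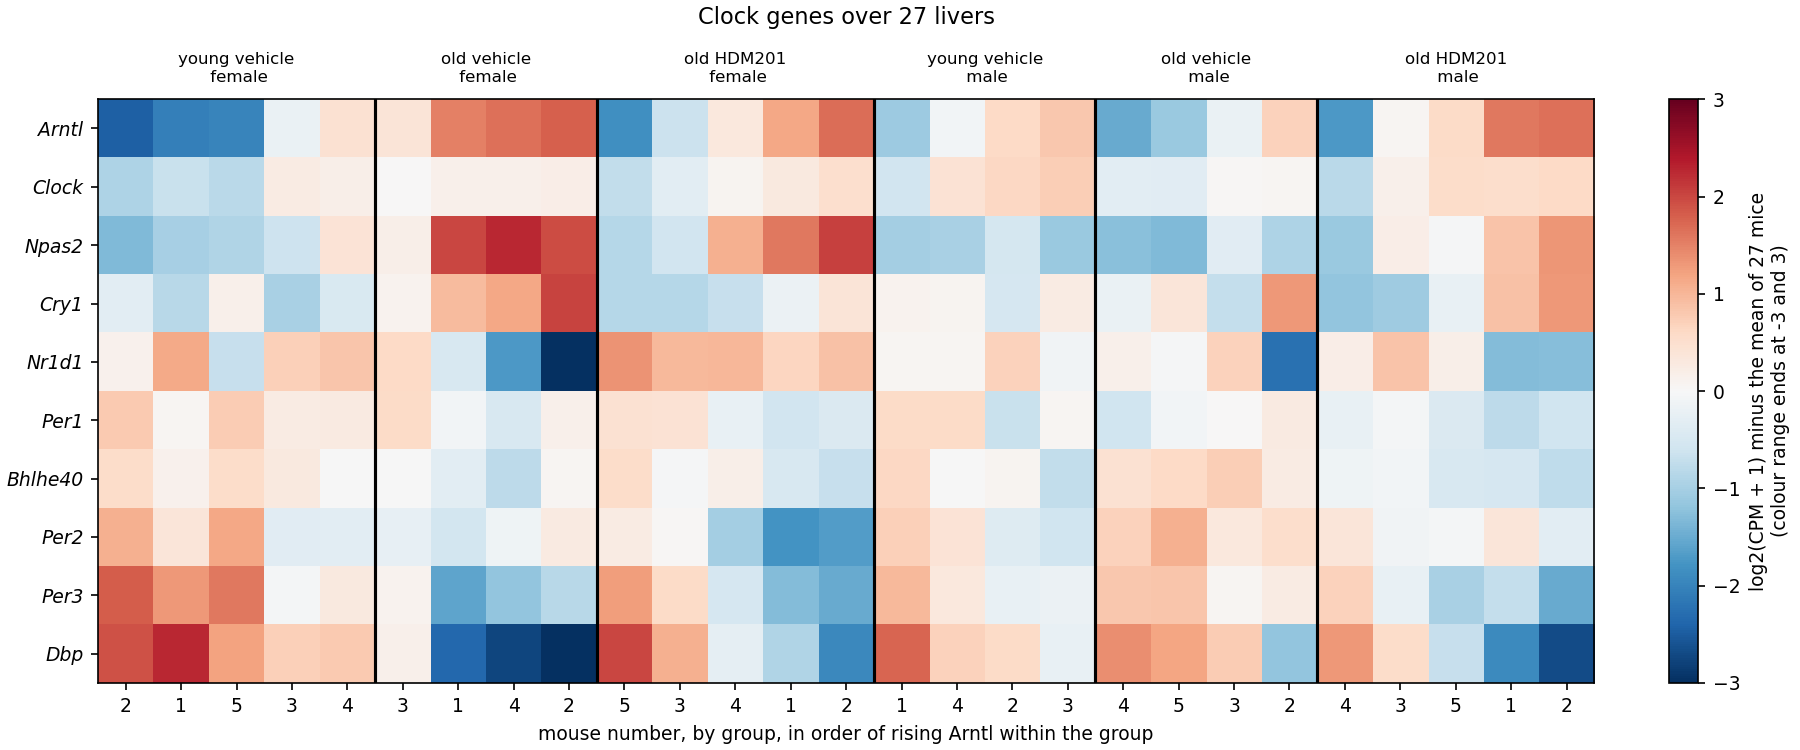
Clock gene levels in 27 livers as log2(CPM + 1) minus the mean of all mice, with mice in columns, grouped and ordered by rising Arntl within the group, and genes in rows. Red is above and blue below the mean. Within most groups the row of Arntl turns from blue to red from left to right as the rows of Per3 and Dbp turn from red to blue, and the darkest blue cells of Nr1d1 belong to old vehicle females 2 and 4 and old vehicle male 2.

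Nr1d1 and Cry1 set apart mice that Arntl placed side by side. Old vehicle female 2 and HDM201 female 2 had nearly the same Arntl level, 29.5 and 27.4 CPM. Their Nr1d1 levels were 6.63 and 139 CPM, and their Cry1 levels 63.2 and 19.7 CPM. The ratio of Nr1d1 to Cry1 was 0.105 in the first and 7.03 in the second. All 5 HDM201 females had a ratio of at least 7.03, the highest being 25.1, whereas the old vehicle females had 1.82, 0.105, 7.12 and 0.646. Young females 1 to 5 had 21.4, 7.04, 17.9, 12.8 and 2.82. HDM201 males 1 to 5 had 1.07, 0.804, 21.0, 14.7 and 6.80. Old vehicle males 2 to 5 had 0.404, 14.2, 6.56 and 3.81, and young males 1 to 4 had 4.89, 12.2, 3.90 and 5.01. High ratios were thus not particular to HDM201 females. Both genes are compared in the same females below, so the ratio adds no separate support.

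In old females HDM201 was accompanied by lower Cry1. Cry1, a repressor of CLOCK:ARNTL whose transcript peaks late in the cycle, stood at 29.5, 63.2, 16.0 and 34.3 CPM in vehicle mice 1 to 4 and at 13.0, 19.7, 7.72, 8.69 and 7.64 CPM in HDM201 mice 1 to 5. The groups overlapped only through HDM201 mouse 2 and vehicle mouse 3. The log2 fold change was -1.68 ± 0.37 (SE), with a false discovery rate (FDR, edgeR's quasi-likelihood test with Benjamini-Hochberg adjustment over all genes tested) of 0.0264. Cry1 was the 1 of 10 clock genes called at an FDR under 0.05, where 5.25% of all 14445 genes tested were called.

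Nr1d1 had the opposite sign to Cry1 in these females, at 53.7, 6.63, 114 and 22.2 CPM in vehicle mice and 117, 139, 149, 151 and 192 CPM in HDM201 mice. Each HDM201 female lay above each vehicle female, yet the difference of 1.61 ± 0.56 on the log2 scale did not pass (edgeR FDR = 0.113). With no filter on low counts it was called (FDR = 0.028). Dbp differed by 2.06 ± 0.88 (FDR = 0.189) and Arntl by -0.91 ± 0.57 (FDR = 0.377), with overlapping groups. The median of the 10 log2 fold changes was -0.11, and their median size 0.88, against 0.15 over all genes tested.

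The Cry1 call depended on single mice and on the fit. It was lost with all 6 groups in one fit (FDR = 0.0653) and in limma on log2(FPKM + 1) (FDR = 0.154), and held in DESeq2. Its FDR rose to 0.0821 without old vehicle female 2, 0.061 without old vehicle female 4, and 0.0604, 0.0688 and 0.0502 without HDM201 females 3, 4 and 5. Without old vehicle female 3, the vehicle female with the lowest Arntl, Cry1 was called together with Nr1d1 (log2 fold change 2.44, FDR = 0.0181) and Dbp (3.58, FDR = 0.0347). The summed level of 6 macrophage and Kupffer cell markers, all detected, ran from 274 to 530.2 CPM in old vehicle females, from 169 to 261 CPM in HDM201 females and from 176 to 254 CPM in young females. The 5 lymphocyte markers summed to between 23.3 and 31.4 CPM, 12.3 and 15.6 CPM and 9.09 and 9.76 CPM in the same groups, and the part of either in the clock gene differences was not tested.

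In old males HDM201 left all 10 clock genes short of the threshold, and 0.00709% of 14109 genes, a single gene, was called. Bhlhe40 (DEC1), a repressor that competes for E-boxes, came nearest. Its levels were 198, 278, 228 and 252 CPM in vehicle mice 2 to 5 and 117, 98.8, 158, 152 and 120.0 CPM in HDM201 mice 1 to 5, with no overlap. The log2 fold change was -0.88 ± 0.15 (unadjusted p = 0.000104, edgeR FDR = 0.149), and DESeq2, which called 162 genes in all, called it with an adjusted p of 7.08e-05. Of the 10 genes 4 had an unadjusted p under 0.05, the others being Npas2 (2.86 ± 0.96), Per2 (-0.60 ± 0.18) and Per3 (-0.89 ± 0.39), against 1710 of all genes tested. In limma on log2(FPKM + 1) the difference in Npas2 was 0.50.

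Npas2 in old males was scarce in the vehicle group, where mice 2 to 5 had 6, 17, 1 and 0 counts. For counting error alone, the count of 0 in mouse 5 allows up to 0.159 CPM, taking 3 counts as the limit. Its Npas2 was 0.123 FPKM, against 0.0836 FPKM in mouse 2 with 6 counts, so this limit may not hold for its level. HDM201 males 1 to 5 had 63, 99, 33, 3 and 26 counts, or 3.52, 5.29, 1.90, 0.161 and 1.44 CPM. The direction of Arntl under HDM201 was opposite in the sexes, 1.24 ± 0.70 in males and -0.91 ± 0.57 in females, but the interaction of sex and HDM201 called none of the 10 genes in edgeR (Arntl -2.14 ± 1.00, FDR = 0.261), where 0.107% of 14974 genes were called. Of the 10 genes 5 had an unadjusted p under 0.05, against 2774 of all 14974, the smallest being 0.00249 for Bhlhe40 (1.09 ± 0.31, FDR = 0.086), which DESeq2 called with an adjusted p of 0.0212.

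The comparison of old with young vehicle females held the most calls. Of 10 clock genes 6 passed, against 31.8% of 14233 genes tested, with Arntl (2.48 ± 0.60, FDR = 0.00771), Npas2 (3.47 ± 0.66, FDR = 0.00213) and Cry1 (1.77 ± 0.33, FDR = 0.00195) higher in old mice. Dbp (-2.93 ± 0.68, FDR = 0.00621), Per3 (-1.93 ± 0.42, FDR = 0.0043) and Bhlhe40 (-0.54 ± 0.17, FDR = 0.0275) were lower. The median size of the 10 log2 fold changes was 1.46, against 0.25 over all genes tested. This comparison uses the same old vehicle females as the test of HDM201 above, and the macrophage and lymphocyte marker sums given there also separated its groups.

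Npas2, which can stand in for CLOCK, was at 0.254, 0, 0.624, 2.35 and 0.344 CPM in young females 1 to 5 and at 9.11, 8.78, 1.83 and 11.1 CPM in old vehicle females 1 to 4. Only young female 4 reached into the old range, above old female 3, and in limma on log2(FPKM + 1) the difference was 1.63. Per3, whose D-boxes are printed above, was at 86.0, 123, 33.0, 42.0 and 105 CPM in the young and at 10.8, 18.8, 36.7 and 14.4 CPM in the old females, again overlapping through old female 3. Cry1 was at 7.75, 11.6, 6.96, 10.4 and 16.3 CPM in young females, where only mouse 5 exceeded the lowest old value.

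Arntl, Npas2, Per3, Cry1 and Dbp stayed called whichever of the 9 females was left out. Without old vehicle female 3 the log2 fold change of Dbp was -4.46 in place of -2.93, and Nr1d1 (-1.99, FDR = 0.0167) and Per1 (-0.56, FDR = 0.0404) were also called. The call of Bhlhe40 was lost with all 6 groups in one fit (FDR = 0.0739), in limma on log2(FPKM + 1) (0.263), and without old vehicle female 1 (FDR = 0.0726) or 4 (0.0667) or young female 2 (0.0601) or 5 (0.0626). Without young female 3, Clock (FDR = 0.0343) and Per2 (0.042) were called as well, as they were without young female 4 (0.049 and 0.0492).

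**Figure D5:**
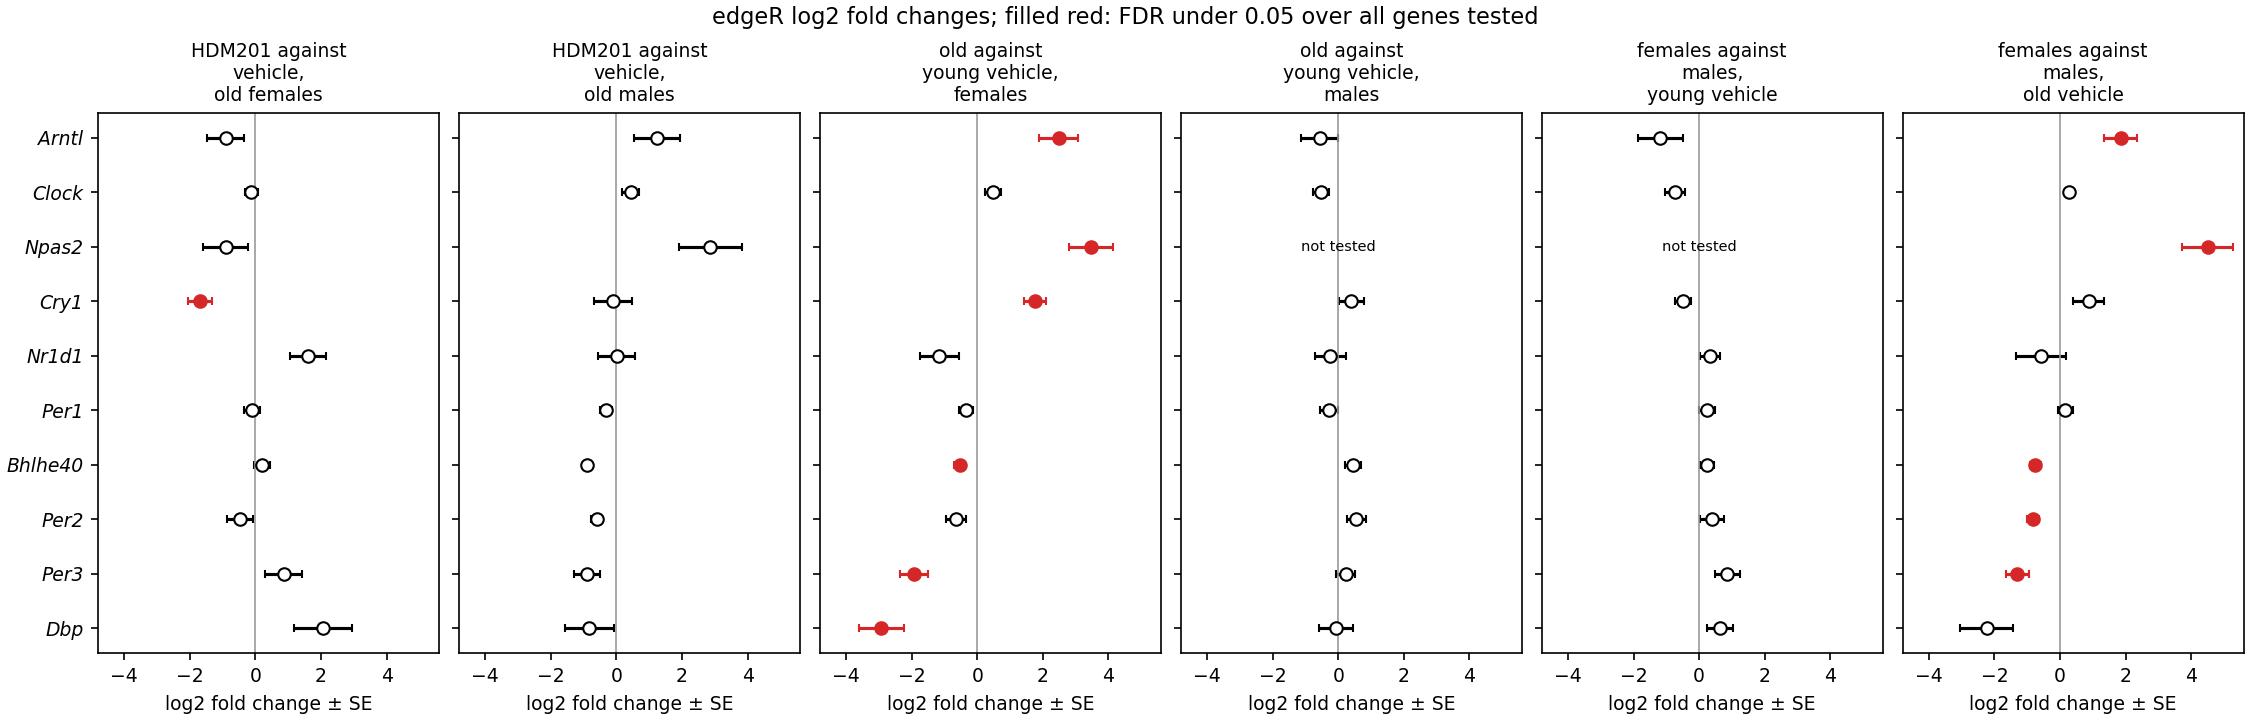
Log2 fold changes of 10 clock genes with their SE in the 6 comparisons of 2 groups, from edgeR fits of the groups compared, with filled red points for genes with an FDR under 0.05 over all genes tested. Arntl, Npas2 and Cry1 lie to the right and Per3 and Dbp to the left in old against young females, and no gene is called in old against young males.

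In males none of the 9 clock genes tested was called between old and young vehicle mice by edgeR or DESeq2, where edgeR called 3.69% of 13755 genes. None of the 9 had an unadjusted p under 0.05, against 3007 of all genes tested. The estimates for Arntl (-0.56 ± 0.57, FDR = 0.611) and Dbp (-0.06 ± 0.52, FDR = 0.961) had wide errors, so they do not show that the ages were alike. Npas2 was under the filter on low counts, at 0.339 ± 0.452 CPM in old and 0.354 ± 0.261 CPM in young males. Without young male 1, which had the lowest Arntl (3.19 CPM) and highest Dbp (189 CPM) of its group, Clock was called lower in old males (-0.75, FDR = 0.0266).

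Whether the difference between old and young mice was the same in both sexes was tested as an interaction, female minus male. Per3 was called (-2.14 ± 0.58, edgeR FDR = 0.0454), 1 of 10 clock genes against 3.92% of 14721 genes tested. Its level was 77.8 ± 39.2 CPM in young and 20.2 ± 11.5 CPM in old vehicle females, and 42.6 ± 18.4 CPM in young and 49.5 ± 13.5 CPM in old vehicle males. Arntl (3.05 ± 0.95, FDR = 0.0741), Dbp (-2.85 ± 0.96, FDR = 0.0926) and Bhlhe40 (-0.98 ± 0.31, FDR = 0.0793) did not pass. The call of Per3 was lost with all 6 groups in one fit (FDR = 0.0849), in limma on log2(FPKM + 1) (0.145) and when any of 11 of the 17 mice was left out, the highest FDR being 0.0935. Those mice were old vehicle females 1, 2 and 4, old vehicle males 4 and 5, young males 2, 3 and 4 and young females 1, 2 and 5. Arntl was called without old vehicle male 2 (FDR = 0.0415), young male 1 (0.0405) or young female 4 (0.0312), and Dbp without old vehicle female 3 (0.00744) or young male 1 (0.0474). Bhlhe40 (0.0167) and Clock (0.028) were called without young male 1, Cry1 without old vehicle male 2 (0.0444) and Npas2 without young female 4 (0.0499).

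Old vehicle females and males differed in 5 of 10 clock genes, against 18.0% of 14088 genes tested. Npas2 (4.51 ± 0.78, FDR = 0.00462) and Arntl (1.86 ± 0.50, FDR = 0.0307) were higher in females. Per2 (-0.82 ± 0.19, FDR = 0.0179), Per3 (-1.30 ± 0.34, FDR = 0.0283) and Bhlhe40 (-0.75 ± 0.18, FDR = 0.0176) were lower. Per2, a repressor of CLOCK:ARNTL, was at 26.0, 46.6, 32.3 and 34.9 CPM in the females and 55.5, 48.0, 62.5 and 81.0 CPM in the males, without overlap. The old females of this comparison are those of the age and HDM201 comparisons, were younger than the males, and had macrophage marker sums of 274 to 530.2 CPM against 114 to 329 CPM, whose part was not tested.

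Npas2 alone stayed called without each of the 8 mice in turn, but not under the replicate block (FDR = 0.0722), and its difference was 1.95 in limma on log2(FPKM + 1). With all 6 groups in one fit Arntl (FDR = 0.106), Per2 (0.156) and Per3 (0.101) were not called. In limma on log2(FPKM + 1) Per2 (0.236), Per3 (0.0756) and Bhlhe40 (0.204) were not, and under the block none of Arntl (0.115), Per2 (0.0656), Per3 (0.157) and Bhlhe40 (0.0874) was. Arntl was not called without old vehicle female 1 (FDR = 0.0689), 2 (0.0807) or 4 (0.0777) or old vehicle male 3 (0.0571), 4 (0.0551) or 5 (0.0747). Per3 was lost without old vehicle females 1 (0.062), 2 (0.0753) or 4 (0.0813) or males 4 (0.0637) or 5 (0.0719), Per2 without female 4 (0.0519) and Bhlhe40 without female 1 (0.0532). Dbp was called without old vehicle female 3 (-3.77, FDR = 0.00549) or male 2 (-2.56, FDR = 0.0478).

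Between young females and males none of the 9 clock genes tested was called by edgeR or DESeq2, where edgeR called 10.5% of 13875 genes. Clock (-0.74 ± 0.31, FDR = 0.142) and Per3 (0.86 ± 0.38, FDR = 0.165) had an unadjusted p under 0.05, as did 3830 of all genes, and with no filter on low counts both were called (FDR = 0.0394 and 0.046). Without young male 1, Clock was called (-0.96, FDR = 0.035). In young males Clock was at 15.5, 36.8, 40.2 and 32.5 CPM, and in young females at 14.5, 11.9, 28.2, 27.1 and 13.1 CPM.

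Other genes of the clock were read from a list of 10 that holds Cry2, Nr1d2, the ROR receptors, Bhlhe41, Ciart, Nfil3, Tef and Hlf. Most of their calls fell in old against young females and in old females against males. These comparisons also had the most calls over all genes, 31.8% and 18.0%. Of the 9 tested in old against young females 1 was called higher and 5 lower, with a median log2 fold change of -0.55 against 0.01 over all genes. Nfil3 (E4BP4), which opposes DBP at D-boxes, was higher (2.14 ± 0.34, FDR = 0.000792). The PAR bZIP factors Tef (-1.14 ± 0.24, FDR = 0.00389) and Hlf (-0.62 ± 0.12, FDR = 0.00235), relatives of Dbp, and Ciart (-3.22 ± 0.67, FDR = 0.00338), a repressor of the loop, were lower. In old females against males 1 was higher, Nfil3 (0.93 ± 0.27, FDR = 0.0428), and 3 were lower, Tef (-0.88 ± 0.23, FDR = 0.026), Nr1d2 (-1.31 ± 0.40, FDR = 0.0484) and Rora (-0.37 ± 0.11, FDR = 0.0356). Rora was also lower in young females than in young males (-0.39 ± 0.08, FDR = 0.0118). It was the 1 gene of the list called there, where 10.5% of all genes were called. None was called for HDM201 in either sex or for age in males, and Rorb, not expressed in liver as a rule, had counts in only 1 mouse.

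A list of 14 clock-controlled outputs had 1 gene higher and 7 lower in old against young females, where 31.8% of all genes were called. Their median log2 fold change was -0.70. Upp2, a uridine phosphorylase, was lower (-1.84 ± 0.34, FDR = 0.00182), as was the liver glycogen synthase Gys2 (-0.85 ± 0.14, FDR = 0.00099), while Lonrf3 was higher (1.71 ± 0.32, FDR = 0.00185). In old females against males 3 of the 14 were lower, a share near the 18.0% of all genes called. Among them were Wee1, a cell cycle kinase gene with E-boxes (-1.71 ± 0.29, FDR = 0.00406), and Gys2 (-0.97 ± 0.14, FDR = 0.00187). Elovl3, a fatty acid elongase, was lower in females at both ages, by -6.18 ± 0.47 in the young (FDR = 6.14e-06) and -5.55 ± 0.95 in the old (FDR = 0.00443). In the young Tspan4 was the other of 2 called (-0.71 ± 0.19, FDR = 0.0322), where 10.5% of all genes were called. None of the 14 was called for HDM201 in either sex or for age in males. Among clock modifiers, which include kinases and ubiquitin ligase subunits that act on PER and CRY proteins, Fbxl21 was higher in females than in males, both old (0.83 ± 0.20, FDR = 0.0215) and young (0.87 ± 0.23, FDR = 0.0356). Gsk3b, a kinase, was lower in young females than in young males (-0.41 ± 0.08, FDR = 0.00678).

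Genes that answer to cues known to reset the liver clock were read in the same fits, and their counts stand against 5.25% of all genes called for HDM201 in old females and 31.8% for old against young females. Of 7 glucocorticoid-responsive genes Tsc22d3 (-0.76 ± 0.17, FDR = 0.0328) and Dusp1 (-0.70 ± 0.18, FDR = 0.0487) were lower with HDM201 in old females. Of 7 temperature-responsive genes tested there, the chaperones Hsph1 (-0.77 ± 0.15, FDR = 0.0184), Hsp90aa1 (-0.61 ± 0.14, FDR = 0.0343) and Hspa8 (-0.33 ± 0.09, FDR = 0.0466) were lower. Among 12 fasting and feeding genes Fgf21, a hormone induced by fasting, was higher (1.90 ± 0.50, FDR = 0.0491). None of 8 immediate early genes was called in these females, and none of the genes of these 4 lists was called for HDM201 in males.

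In old against young females Hsp90aa1 (0.88 ± 0.14, FDR = 0.000844), Hsph1 (0.74 ± 0.14, FDR = 0.00168) and Dnajb1 (0.33 ± 0.11, FDR = 0.0343) were the 3 of 8 temperature-responsive genes called, a share near the 31.8% of all genes. Of 12 fasting and feeding genes 5 were higher and 1 lower, with Pdk4, a fasting-induced kinase of pyruvate dehydrogenase, at 1.67 ± 0.24 (FDR = 0.000424) and Igfbp1 at 0.95 ± 0.27 (FDR = 0.0174). Pnpla3, a gene induced by feeding, was also higher (1.27 ± 0.26, FDR = 0.00314), as was Irs2 (0.87 ± 0.23, FDR = 0.0121). The 1 lower gene was Ppargc1a, a fasting-induced coactivator named after its value was seen (-0.62 ± 0.18, FDR = 0.0175). Of 7 immediate early genes tested 5 were higher, led by Fos (2.38 ± 0.36, FDR = 0.000565), and 2 of 7 glucocorticoid-responsive genes were lower, Dusp1 (-0.71 ± 0.19, FDR = 0.0128) and Zbtb16 (-1.42 ± 0.42, FDR = 0.0213), again a share near that of all genes. These calls stand in the same comparison as those of the core clock genes, and their part in the clock gene values was not tested.

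Between old and young males 1 gene of each of 3 lists was called, where 3.69% of all genes were. These were Hspa1b (1.76 ± 0.42, FDR = 0.0496), Pnpla3 (2.63 ± 0.35, FDR = 0.00577) and Fos (1.86 ± 0.40, FDR = 0.0369), all higher in old mice. Between the sexes in old mice 3 of 12 fasting and feeding genes were higher in females, where 18.0% of all genes were called. They included Pdk4 (1.20 ± 0.33, FDR = 0.0321) and Irs2 (1.09 ± 0.27, FDR = 0.0205). Sgk1, a glucocorticoid-induced kinase, was higher (1.15 ± 0.17, FDR = 0.00191) and the cold-induced RNA-binding protein gene Rbm3 lower (-0.61 ± 0.12, FDR = 0.00981).

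The genes whose levels most resembled those of Arntl and Dbp over the 27 mice were found among 15292 genes by Pearson's r of log2(CPM + 1), given as a description since the mice share their groups. Highest with Arntl were Clpx, a subunit of a mitochondrial protease (r = 0.94), Pnkd (0.94), Lgalsl (0.92), Leo1 (0.92) and Blcap (0.92). Lowest were Per3 (-0.93), Tef (-0.91), Dbp (-0.91), the vitamin transporter gene Slc5a6 (-0.91) and the phosphate transporter gene Slc20a1 (-0.85). Both Per3 and Dbp, core genes themselves, and Tef, a relative of Dbp, thus lay at the far end of the list for Arntl. With Dbp the highest were Nr1d2 (0.92), Tef (0.91), Slc5a6 (0.90), Ripk2 (0.88) and Per3 (0.87), and among the lowest were Dnmt3b (-0.92), Arntl (-0.91), Lgalsl (-0.90) and Clpx (-0.89).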

How the data were processed

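Whole liver RNA was sequenced from 29 mice in 6 groups. Reads had been mapped by the authors with STAR (mm10), and the deposited HTSeq counts per gene cover 27 mice. The authors also deposited FPKM values from Cufflinks for all 29, used as an alternative (empty cells read as 0). Annotation release, versions and strand setting are not given in the sources used here. Counts were scaled by TMM and tested with edgeR 4.0.16 (quasi-likelihood F-test, filterByExpr, R 4.3.3) in the groups compared, with Benjamini-Hochberg adjustment over all genes tested and a threshold of 0.05. The SE is the log2 fold change divided by the root of F. DESeq2 1.42.0 and limma 3.58.1, on log2(FPKM + 1) and log2(FPKM + 0.1), served as alternatives. Fits were tested on simulated data.

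Total counts were 16485900 to 23570458 per mouse, and limits from a count of 0 (3 counts, 0.122 to 0.19 CPM) cover counting error only. Mice of 1 group differed by more than sampling noise (chi-square per degree of freedom at least 12.8). Replicate numbers did not pair mice. The 10 genes and all lists were chosen with earlier results of these data known. Named beside the 10 genes are up to 4 called genes of each list with the smallest FDR, and the 5 genes most and least like Arntl and Dbp. Some results that this rule names are not reported here.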

Additional observations from a re-analysis of the deposited data

Results flagged for a closer look

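Among 60 sets of values (10 genes in 6 groups) the gap to the most extreme mouse, taken on the CPM scale, passed an outlier limit in 2. Chance alone gives about 1 in 20 sets, and 2 of 60 is no more than that. The 2 mice are therefore only described. Dbp in old vehicle female 3 was 61.9 CPM, against 4.30 to 9.96 CPM in the other old vehicle females, a gap of 0.902 of the range of the group. The same mouse had the lowest Arntl, Clock and Npas2 and the highest Nr1d1, Per1 and Per3 of its group. Npas2 in young female 4 was 2.35 CPM, a gap of 0.735 of the range, and this mouse also had the highest Arntl of its group, at 11.2 CPM.

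Per3 was called in the interaction of sex and age, at -2.14 on the log2 scale (edgeR's quasi-likelihood test, FDR = 0.0454). Single mice and the choice of fit decide this call, as set out above. The old females were aged 20 months and the old males 24 months.

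A mouse that is in the FPKM tables but not in the count table stood apart. In young male 5 the ratio of Arntl to Dbp FPKM was 6.11, against 0.00705, 0.0737, 0.144 and 0.039 in young males 1 to 4. Its Dbp was 1.30 FPKM, its Per3 0.532 FPKM and its Nr1d1 2.57 FPKM, and its Arntl was 7.92 FPKM and its Npas2 4.66 FPKM. No count-based comparison holds this mouse. The methods state that a young male with a wound and a possible infection was left out of the analysis, and whether it was this mouse was not given.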

How the results depend on the processing

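The number of clock genes called in HDM201 against vehicle females, 1, was 2 with no filter on low counts (Cry1 and Nr1d1), 0 with all 6 groups in one fit and 0 in limma on log2(FPKM + 1) or log2(FPKM + 0.1), and 0 to 3 when 1 mouse was left out. In HDM201 against vehicle males it was 0, and 1 (Bhlhe40) in DESeq2 or with no filter. For old against young females, 6, it was 5 to 8 throughout. It was 0 to 1 without single mice for age in males and for sex in young mice, where no filter gave 2. For sex in old mice, 5, it was 2 in the fit of 6 groups, 2 and 1 in limma at the larger and smaller pseudocount, and 2 to 6 without single mice. The interaction of sex and HDM201, 0, gave 1 in DESeq2. The interaction of sex and age, 1, gave 2 in DESeq2, 4 with no filter, 0 in the fit of 6 groups and in both limma fits, and 0 to 5 without single mice. The causes were not tested.

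Mice with the same replicate number did not deviate together (r of -0.173 to 0.173 per pair), so the numbers were not taken as pairs. The replicate block gave 2 calls (Cry1 and Dbp) for HDM201 in females, 1 (Cry1) for sex in old mice and 0 for the interaction of sex and age. Over all genes it gave 366 calls in place of 758, 742 in place of 2536 and 183 in place of 577, and 29 in place of 507 for age in males. Under it the log2 fold changes of Clock (0.0036) and Bhlhe40 (-0.0020) for HDM201 in females, Dbp for age in males (0.039), Per2 in the interaction of sex and HDM201 (-0.27) and Per1 in that of sex and age (0.074) changed sign.

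Signs also changed in limma on log2(FPKM + 1), which adds 2 males, among them young male 5, for Cry1 under HDM201 in males (0.025), Nr1d1 (0.13) and Dbp (1.03) for age in males and Per2 in the interaction of sex and HDM201 (-0.091). With a pseudocount of 0.1 the last 3 were 0.17, 1.17 and -0.22. Without the 2 added males, an alternative chosen after seeing the data, Dbp for age in males was -0.05, Per2 in the interaction of sex and HDM201 -0.017 and Per1 in that of sex and age 7.33e-05, sex in old mice again gave 2 calls, and the interaction of sex and age gave 1, Npas2 (FDR = 0.04) in place of Per3. Without single mice, the sign was not fixed for Clock (-0.27 to 0.028) and Per1 (-0.25 to 0.11) under HDM201 in females, Cry1 (-0.56 to 0.43) and Nr1d1 (-0.33 to 0.36) under HDM201 in males, or Cry1 (-0.13 to 0.65), Nr1d1 (-0.59 to 0.10) and Dbp (-0.33 to 0.42) for age in males. The same held for Per1 between the sexes in old mice (-0.049 to 0.31), Per2 in the interaction of sex and HDM201 (-0.20 to 0.33) and Per1 in that of sex and age (-0.27 to 0.15). None of these values was called. RLE size factors changed no call, and 8 of 9 correlations with Arntl passed in each of the 3 alternatives run.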

Other observations

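The other male with FPKM values only, old vehicle male 1, had a ratio of Arntl to Dbp FPKM of 0.0152, within the range of 0.00623 to 0.212 in old vehicle males 2 to 5. Over all 29 mice the FPKM ratio was highest in young male 5 and lowest in young female 2, at 0.00127.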
